A study of Mus musculus with 8 samples.

Results

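Potassium channel genes were taken as the rows of the gene count table whose Ensembl ID carries a symbol starting with Kcn and whose raw counts added up to at least 8 over the 8 libraries. Of 22430 genes in the table, 94 had such a symbol, and 67 of these reached the minimum. The members were chosen by name and total count, without regard to age. Nanopore counts came from brain hemispheres of 8 male C57Bl/6JRj mice, 4 young adult mice of 6 months (6m) and 4 aged mice of 24 months (24m), with 1 library per mouse. No genetic change or treatment is named for either age. The study's methods describe direct RNA sequencing on a MinION, whereas the sample labels name a stranded polyA+ kit. As each library held all cells of a hemisphere, a change in the number of cells of a type and a change in the RNA per cell cannot be told apart.

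Potassium channels let K+ ions leave or enter cells and thereby set the resting potential, end action potentials and time repetitive firing. Each pore-forming subunit lines the pore with a short selectivity filter, a backbone of carbonyl oxygens that fits K+ but not Na+. Voltage-gated subunits (Kcna to Kcnd, Kcnf to Kcnh, Kcnq, Kcns and Kcnv) open on depolarization or modify subunits that do. The calcium- or sodium-activated subunits (Kcnma, Kcnn and Kcnt) open when these ions rise in the cell, and they end bursts of spikes. Kcnu1 (Slo3), which is opened by voltage and alkaline pH rather than by calcium, is counted with them as a relative of Kcnma1. Inward rectifiers (Kcnj) hold the membrane near the K+ equilibrium and in astrocytes take up K+ released by firing. Two-pore subunits (Kcnk) carry background leak. The auxiliary proteins (Kcnab, Kcnip, Kcne and Kcnmb) form no pore and change the gating, trafficking or surface level of the others.

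The filter is the feature that the pore-forming members share and that their names do not use. Each of the 57 pore-forming members encoded a serine or threonine, then valine, isoleucine, leucine or threonine, then glycine, then tyrosine, phenylalanine or leucine, then glycine in its canonical coding sequence (GENCODE, GRCm39). None of the 10 auxiliary members did, and 347 of 21770 protein-coding genes did (1.59%). It occurred at least 2 times in 6 of the 7 two-pore members and in no other member. The coding stretches below are shown for the pore-forming members that changed with age and for Kcnk1, the two-pore member with the most counts, from 5′ to 3′ on the coding strand, with the 5 filter codons in capitals.
Kcnc1 (7:46077391-46077420, plus strand, exon 2): atgacgACACTGGGCTATGGAgacatgtat
Kcna1 (6:126619182-126619211, minus strand, exon 2): atgaccACTGTGGGATACGGTgacatgtac
Kcna6 (6:126715601-126715630, minus strand, exon 1): atgaccACGGTAGGTTATGGGgacatgtac
Kcng4 (8:120352640-120352669, minus strand, exon 3): atgacgACCGTGGGCTATGGGgacatggtc
Kcnma1 (14:23578472-23578501, minus strand, exon 8): atgtctACAGTGGGTTATGGGgacgtttat
Kcnt1 (2:25784373-25784402, plus strand, exon 10): ttctcaACTGTGGGCTTCGGTgatgtgacg
Kcnj9 (1:172153742-172153771, minus strand, exon 3): gagaccACCATCGGCTATGGGcaccgggtc
Kcnj10 (1:172196863-172196892, plus strand, exon 2): cagaccACCATCGGCTATGGCttccgctac
Kcnk1, first pore loop (8:126722541-126751767, plus strand, split over exons 1 and 2): ctctccACCACAGGCTATGGCcacacggtg
Kcnk1, second pore loop (8:126752062-126752091, plus strand, exon 2): ctgagcACCATCGGCCTGGGGgactatgtt
The residue before the last glycine was tyrosine in all of these but Kcnt1, where it was phenylalanine, and the second pore loop of Kcnk1, where it was leucine. Kcna1 and Kcna6, whose transcripts moved in opposite directions with age, encode the same 5 filter residues with different codons.

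The libraries held 573152 to 1255424 counts, and potassium channel members made up 10778 of all counts (0.162%). Their share was 0.1405 to 0.1546% at 6m and 0.1537 to 0.1896% at 24m. Levels are given as CPM, counts per 1000000 on library sizes scaled by trimmed means of M-values, where 3 counts in a library corresponded to 2.3 to 5.42 CPM. On a principal component plot, 24m replicate 1 stood apart from the others on the second axis. All 8 neuron markers were counted, and their summed level was 1948 to 2086 CPM at 6m and 2209 to 2545 CPM at 24m. They did not move as a group, since by the test described below 2 rose and 1 fell. Snap25 (mean 318 CPM at 6m and 534 CPM at 24m) and Syp (181 and 361 CPM) rose, whereas Map2 (43.2 and 23.5 CPM) fell. Summed oligodendrocyte markers (6 genes) were at 1870 to 2437 CPM at 6m and 2556 to 3448 CPM at 24m. All 5 red blood cell markers fell, with overlap between the ages in each. Of the 5 cerebellar markers 2 rose (Cbln1 and Cbln3), and the sum of the 5 was 426 to 774 CPM at 6m and 600 to 899 CPM at 24m. Under the alternatives described below, the call was lost for Alas2 in 10, Cbln1 in 4 and Hba-a2 in 3. It was lost for Hba-a1, Cbln3 and Snap25 in 2 each and for Map2 in 1. The part of these marker shifts in the results that follow was not tested except where a value is given.

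Of the 67 members, 45 had a mean count over 5 and entered the test (edgeR's quasi-likelihood test over 9375 genes, Benjamini-Hochberg adjusted). Changed genes had to reach a log2 fold change (log2FC, 24m over 6m) of 0.58 or more in size with an adjusted p no higher than 0.05. By this rule 9 members rose (Kcnc1, Kcng4, Kcna6, Kcnj9, Kcnj10, Kcnip2, Kcnab2, Kcnab1 and Kcnip4) and 3 fell (Kcna1, Kcnt1 and Kcnma1). The 9 higher genes were 20.0% of the tested members, beside 10.3% of all tested genes, and the 3 lower genes were 6.67%, beside 4.17%. The adjusted p alone gave the same counts, 9 and 3, beside 1155 and 883 of the 9375 tested genes. By that rule lower genes were a smaller share of the members than of all tested genes. Without 24m replicate 1 the test called 12 members higher and 3 lower, beside 11.8% and 5.24% of all tested genes in that fit. Of the tested members, 9 averaged more than 5 counts at 24m but not at 6m and so entered the test through the aged libraries (Kcna4, Kcna5, Kcna6, Kcnj3, Kcnj9, Kcnj10, Kcnj11, Kcnj12 and Kcnk3), and 0 did so through 6m alone. Among the 36 that passed 5 counts at both ages, 6 rose and 3 fell. The share among all genes that passed at both ages was not computed, so these counts have no comparison. The median log2FC was 0.32 over the 45 members and -0.0034 over all tested genes. With no overlap between the 4 libraries of each age, 11 members were higher (24.4%, beside 11.1% of all tested genes) and 2 were lower (4.44%, beside 9.96%).

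**Figure D1:**
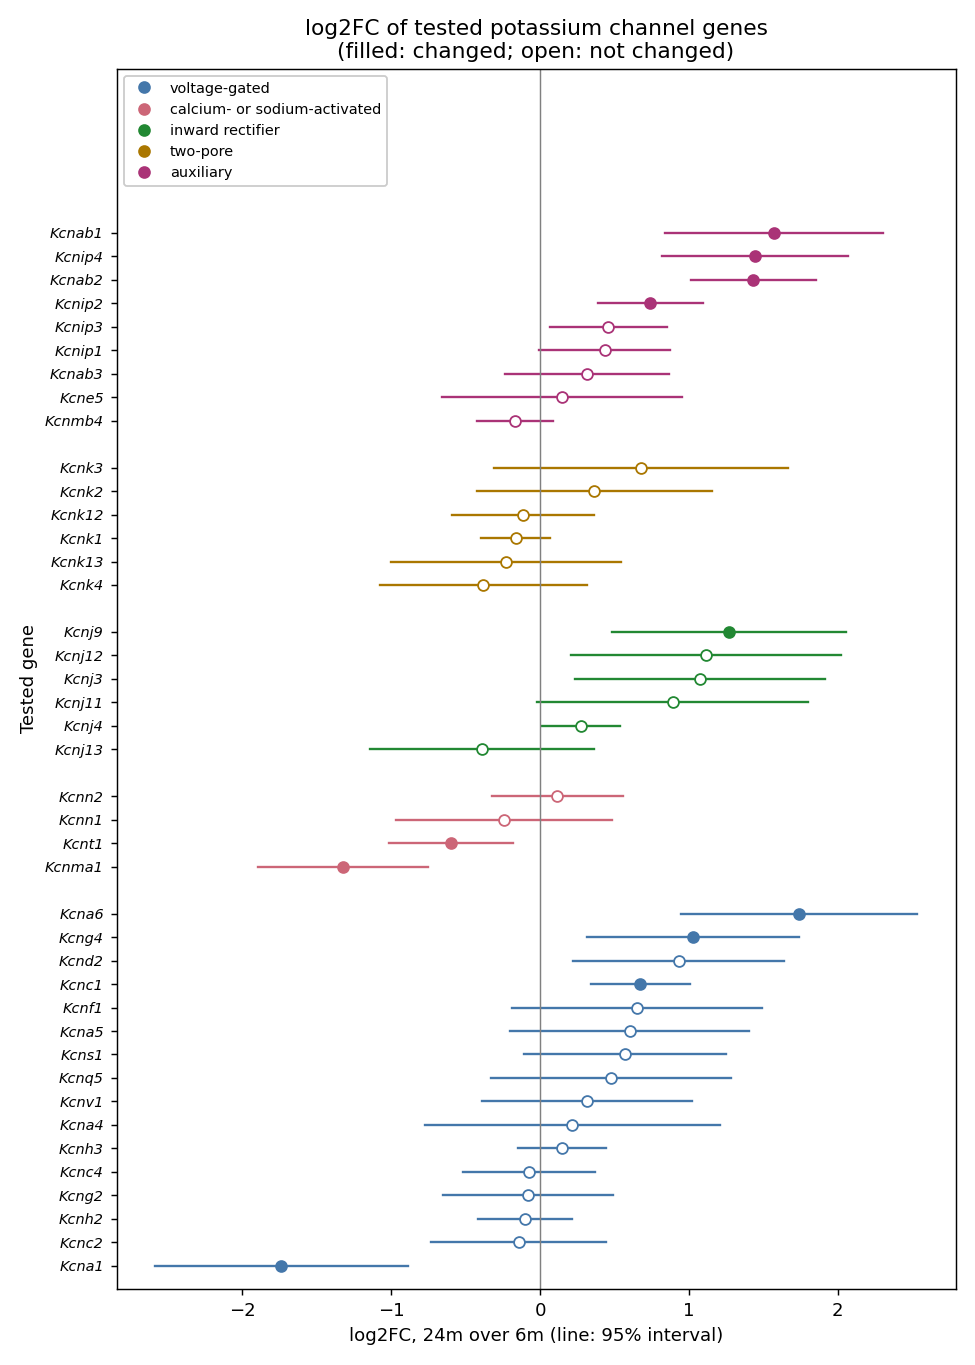
log2FC (24m over 6m, x axis) with its 95% interval for tested potassium channel genes, grouped by class. Filled points are genes called changed and open points are not. Kcnj10 is left out because it had 1 count in all 6m libraries. Changed genes of the auxiliary class lie right of 0, and those of the calcium- or sodium-activated class lie left of it. Kcnj9, the only changed inward rectifier drawn, lies right of 0 and entered the test through the aged libraries.

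By class, the voltage-gated members had 3 of 19 tested genes higher and 1 lower, with a median log2FC of 0.32. The calcium- or sodium-activated members had 0 of 4 higher and 2 lower, with a median of -0.42. Inward rectifiers had 2 of 7 higher and 0 lower, with a median of 1.07, which did not change when Kcnj10 was set to the count floor of 3 counts per library. Two-pore members had 0 of 6 changed, with a median of -0.14. Auxiliary members had 4 of 9 higher and 0 lower, with a median of 0.46. Of all tested genes 10.3% rose and 4.17% fell, with a median log2FC of -0.0034. The classes are small, no test compared them, and 5 of the 7 tested inward rectifiers entered the test through the aged libraries.

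Summed over its members, the auxiliary class averaged 362 ± 14.7 CPM over the 6m libraries against 495 ± 41.7 CPM over the 24m libraries (SD, n = 4 per age). The inward rectifiers were at 154 ± 12.7 and 214 ± 16.6 CPM, and the calcium- or sodium-activated class at 129.8 ± 8.42 and 91.1 ± 5.95 CPM. The ages did not overlap in these 3 classes, which were higher at 24m in the first and second and lower in the third. Voltage-gated sums were 618 ± 45.1 and 670.2 ± 63.3 CPM, and two-pore sums 246 ± 11.2 and 225 ± 18.5 CPM, with overlap between the ages in both. The sums are descriptions without a test, since a few abundant members carry each of them.

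**Figure D2:**
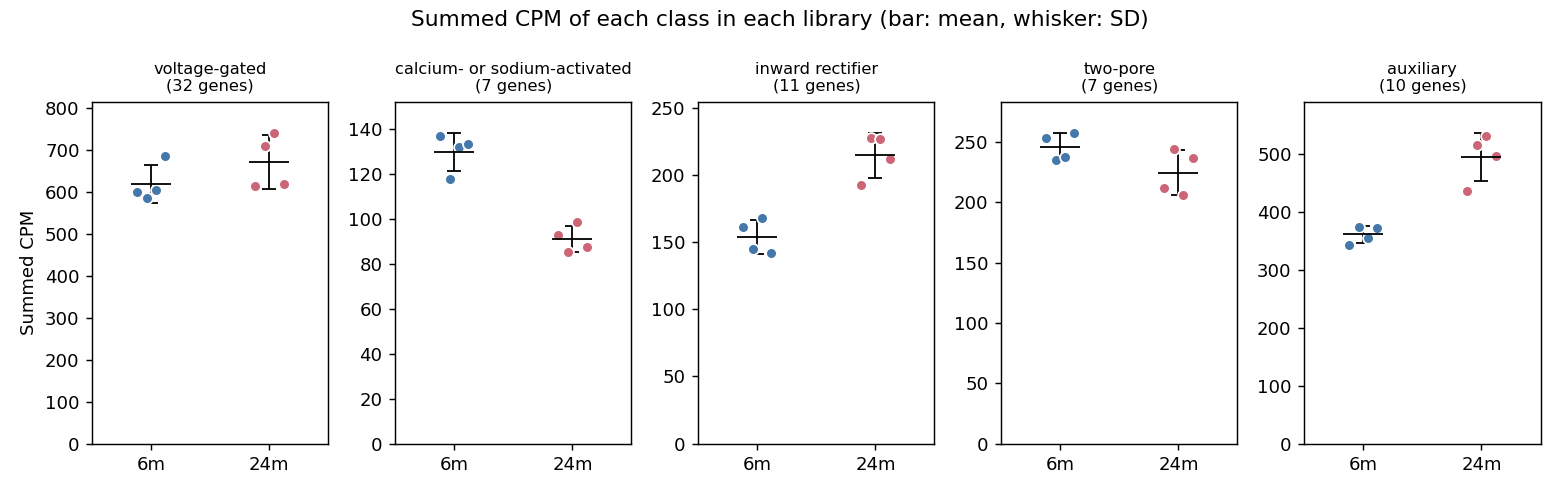
Summed CPM (y axis, from 0) of the members of each class in each of the 4 libraries per age. Points are libraries, bars are means and whiskers are SD. The auxiliary and inward rectifier sums of all 24m libraries lie above those of all 6m libraries, and the calcium- or sodium-activated sums lie below.

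The Kv1 genes, whose channels sit on axons and presynaptic terminals and limit excitability, moved in both directions. Kcna1, which encodes Kv1.1, was at 32.0, 14.5, 27.4 and 28.9 CPM in 6m replicates 1 to 4 and at 16.8, 4.16, 14.1 and 1.53 CPM in 24m replicates 1 to 4. The lowest 6m library lay below the highest 24m library, so the ages overlapped. The log2FC was -1.74 (SE 0.41, edgeR adjusted p = 0.00391). The call was absent in DESeq2 on the raw counts (adjusted p = 0.112). Kcna6, which encodes Kv1.6, was at 6.15, 3.62, 3.73 and 5.02 CPM at 6m and at 21.3, 12.5, 16.6 and 15.3 CPM at 24m, so each 24m library exceeded each 6m library. Its log2FC was 1.74 (SE 0.39, edgeR adjusted p = 0.00233). Kcna6 entered the test through the aged libraries, with summed counts of 14 at 6m and 59 at 24m, so its call is given as a description. Kcna1 (6:126617360-126623347) and Kcna6 (6:126685292-126717644) lie on the minus strand of chromosome 6, 61.9 kb apart (GRCm39). The exons of Kcna6 overlap those of the antisense gene Gm26673 over 2362 bases, and the sources used here do not say whether reads were counted by strand, so their reads cannot be told apart. Kcna1 had no such overlap. Kcna5, the neighbour on the other side of Kcna1, was not called (log2FC 0.60, adjusted p = 0.292), nor was Kcna4, a Kv1 gene on chromosome 2 (0.22, adjusted p = 0.793).

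Among Kv3 genes, which carry fast delayed rectifier current in fast-spiking neurons, Kcnc1 was called changed. It was at 44.3, 47.0, 49.8 and 66.6 CPM at 6m and at 76.2, 90.5, 75.5 and 88.2 CPM at 24m. The ages did not overlap, and the log2FC was 0.67 (SE 0.16, edgeR adjusted p = 0.00411). The part of the cerebellar markers in this result was not tested. The log2FC of Kcnc2 was -0.14 (adjusted p = 0.767) and that of Kcnc4 was -0.07 (adjusted p = 0.850). Kcnc2 ran from 9.15 CPM in 24m replicate 1 to 32.2 CPM in 24m replicate 4. The signs of both genes reversed when single libraries were left out.

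The Kv4 subunits carry the A-type current of dendrites. Kcnd2, which encodes Kv4.2, was at 6.15, 14.5, 23.6 and 11.3 CPM at 6m and at 16.8, 29.1, 43.5 and 18.4 CPM at 24m. These ranges overlapped, and the log2FC of 0.93 (SE 0.35) missed the threshold at an adjusted p of 0.0537. In the fit on all 13374 genes with at least 8 counts, in which 7.72% of genes rose and 3.06% fell, Kcnd2 passed it (log2FC 0.93, edgeR adjusted p = 0.0453). That fit called 10 of 67 members higher (14.9%) and 3 lower (4.48%), with Kcnd2 as the only addition. Kcnd1 had 37 counts (log2FC 0.55 in that fit, adjusted p = 0.544) and Kcnd3 had 11.

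Kcnq5, a subunit of the M-current that is the target of muscarinic modulation, had a log2FC of 0.48 (SE 0.39, adjusted p = 0.422), with 4.92 to 12.7 CPM at 6m and 8.32 to 17.9 CPM at 24m. Of the EAG, ERG and ELK subunits, Kcnh3 was at 77.7 to 113 CPM and Kcnh2 at 48.8 to 57.8 CPM over the 8 libraries. Their log2FC was 0.15 (adjusted p = 0.505) and -0.10 (adjusted p = 0.687).

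The electrically silent subunits form channels only together with Kv2 subunits, whose current shapes repetitive firing. Kcng4 was at 11.1, 9.04, 4.98 and 7.53 CPM at 6m and at 21.3, 16.6, 16.6 and 13.8 CPM at 24m. Each aged library was above each young adult library, with a log2FC of 1.03 (SE 0.35, edgeR adjusted p = 0.0346). This call was lost without 6m replicate 2, 3 or 4, or 24m replicate 2 or 3, with log2FC between 0.85 and 1.08. It was also lost in DESeq2 on raw counts (adjusted p = 0.105), in DESeq2 on quantile-normalized counts (0.157) and in limma-voom (0.0683). The exons of Kcng4 overlap those of the antisense gene Gm46054 over 232 bases. Further tested silent subunits were not called, Kcnf1 with a log2FC of 0.65, Kcns1 with 0.57, Kcnv1 with 0.32 and Kcng2 with -0.08 (adjusted p 0.230 to 0.875).

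Among the channels that open on calcium or sodium, 2 of 4 tested genes fell and 0 rose, beside 4.17% and 10.3% of all tested genes. Kcnma1 encodes the pore of the BK channel, which repolarizes spikes in response to calcium and voltage together. It was at 25.8, 25.3, 38.6 and 28.9 CPM at 6m and at 13.7, 14.6, 6.40 and 12.3 CPM at 24m. All aged libraries lay below all young adult libraries, and the log2FC was -1.33 (SE 0.28, edgeR adjusted p = 0.0014). The counts behind these levels were 89 at 6m and 44 at 24m. Kcnma1 spans 14:23339499-24064559 on the minus strand, and its exons overlap those of the antisense gene 4930519K11Rik over 1063 bases. Kcnmb4, the main BK beta subunit of neurons, did not pass the test and is described with the auxiliary genes.

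Kcnt1 encodes Slack, a sodium-activated channel, and had the most counts of this class. Its level was 51.7, 36.2, 38.6 and 45.2 CPM at 6m and 27.4, 30.2, 35.8 and 23.0 CPM at 24m. The ages did not overlap, but the lowest 6m library and the highest 24m library differed by less than the CPM of 1 count in either. Its log2FC of -0.60 (SE 0.20, edgeR adjusted p = 0.035) was close to the minimum of 0.58. The call was lost in 10 of 18 alternatives, among them those without 6m replicate 1 or 4 and without 24m replicate 2 or 4, in which the log2FC lay between -0.62 and -0.47. The related Kcnt2 (Slick) was too low for the test, with counts of 6, 0, 7 and 4 at 6m and 1, 0, 3 and 0 at 24m. Its pooled ratio of CPM was 0.188 (exact 95% counting interval 0.046 to 0.578), and the log2FC in the fit on all genes with at least 8 counts had an adjusted p of 0.057. The SK genes, which produce the afterhyperpolarization, were tested for Kcnn2 (log2FC 0.12, 95% interval -0.32 to 0.56, adjusted p = 0.744) and Kcnn1 (-0.24, 95% interval -0.97 to 0.48, adjusted p = 0.669). Kcnu1, whose product Slo3 is known from sperm, had 39 counts (log2FC -0.66 in the wider fit, adjusted p = 0.391).

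Among inward rectifiers, 2 of 7 tested genes rose, and 6 of 7 had a log2FC above 0, beside 10.3% and 49.7% of all tested genes. Kcnj3, Kcnj9, Kcnj10, Kcnj11 and Kcnj12, which include the genes that rose, entered the test through the aged libraries, so these counts are descriptions. The remaining tested genes, Kcnj4 and Kcnj13, were not called (log2FC 0.28 and -0.39). Kcnj10 encodes Kir4.1, the main K+ channel of astrocytes, which also occurs in oligodendrocytes. It had counts of 1, 0, 0 and 0 at 6m and 6, 9, 6 and 19 at 24m, or 9.15, 9.36, 7.68 and 14.6 CPM at 24m. All young adult libraries lay below the level that 3 counts represent and all aged libraries above it. The pooled CPM at 24m was 32.0 times that at 6m, with an exact 95% counting interval of 5.43 to 1300. Kcnj10 entered the test through its 24m counts alone, with a mean of 5.12 counts over all libraries, so its call is given as a description. The fitted fold of a gene with 1 count in a group depends on the prior count and is not given. Kcnj10 (1:172168765-172201652) overlaps exons of the antisense gene Gm57153 over 84 bases. Of the 8 astrocyte markers, 7 were tested, of which Gfap (log2FC 1.94), Slc1a3 (1.65) and Gja1 (1.42) rose and Slc1a2 (-0.59) fell, a call that Slc1a2 lost in 9 alternatives. The summed level of the 8 markers was 2551 to 3034 CPM at 6m and 2563 to 3298 CPM at 24m, and no marker was at 0. Most of this sum is Aldoc (mean 2341 CPM at 6m and 2148 CPM at 24m, not called), so it says little of the other markers. The part of the astrocyte and oligodendrocyte markers in the Kcnj10 result was not tested.

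Kcnj9, which encodes the G protein-gated subunit Kir3.3, lies 5.20 kb from Kcnj10 on chromosome 1 (1:172144668-172163568, minus strand). It was at 6.15, 9.04, 4.98 and 7.53 CPM at 6m and at 13.7, 17.7, 25.6 and 10.7 CPM at 24m. Each aged library exceeded each young adult library, with a log2FC of 1.27 (SE 0.38, edgeR adjusted p = 0.0193). Kcnj9 also entered the test through the aged libraries, with summed counts of 20 at 6m and 60 at 24m, so its call is given as a description. The call was lost without 6m replicate 1 or 3 and without 24m replicate 2 or 3, where the log2FC was 1.02 to 1.23. It was also lost in DESeq2 on raw counts (adjusted p = 0.0564), in DESeq2 on quantile-normalized counts (0.0996) and in limma-voom (0.0653). Its exons overlap those of Igsf8, Gm36937 and Gm70847 on the opposite strand over 2105 bases in all. Kcnj3, which encodes Kir3.1 and forms heteromers with Kir3.3, was at 5.02 to 6.22 CPM at 6m and 7.62 to 18.7 CPM at 24m. These ranges did not overlap, and the log2FC of 1.07 (SE 0.41) missed the threshold (edgeR adjusted p = 0.0599). The call was present without 24m replicate 1 or 24m replicate 4. Kcnj6, the further G protein-gated subunit, had 10 counts at 6m and 12 at 24m.

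Kcnj4 encodes Kir2.3, a strong rectifier of forebrain neurons, and had the most counts of the class. It was at 108, 105, 117 and 92.9 CPM at 6m and at 127, 124, 125 and 136 CPM at 24m. Although the ages did not overlap, the log2FC of 0.28 (SE 0.13, 95% interval 0.01 to 0.54) was below the minimum and had an edgeR adjusted p of 0.129. Kcnj12, another strong rectifier, had a log2FC of 1.12 (SE 0.44, adjusted p = 0.0709), with 1.81 to 12.6 CPM at 6m and 7.62 to 24.3 CPM at 24m. It was called without 6m replicate 4 (log2FC 1.66) and without 24m replicate 1 (1.26). Kcnj11, the pore of the ATP-sensitive channel, had a log2FC of 0.89 (adjusted p = 0.155), with 24m replicate 2 at 19.8 CPM and the other 24m libraries at 7.62 to 7.68 CPM. Kcnj13, known from the choroid plexus, was the tested inward rectifier below 0 (log2FC -0.39, adjusted p = 0.488). The 4 choroid plexus markers summed to 2810 to 4211 CPM at 6m and 2178 to 4336 CPM at 24m.

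No two-pore member changed in edgeR, DESeq2 or limma-voom, and 0 of the 6 tested had an unadjusted p under 0.05 in edgeR. Kcnk1, which encodes TWIK1, was the most counted potassium channel gene of the table with 1118 counts. It was at 172, 181, 169 and 190 CPM at 6m and at 154, 173, 145 and 162 CPM at 24m, and the highest 24m library lay within the 6m range. Its log2FC was -0.16 (SE 0.11, 95% interval -0.40 to 0.07, edgeR adjusted p = 0.326), an interval that leaves out changes past the minimum of 0.58 in either direction. The other tested two-pore genes had wider intervals, with log2FC of 0.68 for Kcnk3 (TASK1), 0.36 for Kcnk2 (TREK1), -0.11 for Kcnk12, -0.23 for Kcnk13 and -0.38 for Kcnk4 (TRAAK) and adjusted p of 0.341 to 0.770. Kcnk13, known as THIK1 from microglia, was at 9.04 to 13.8 CPM at 6m and 5.12 to 15.3 CPM at 24m. The 8 microglia markers summed to 675 to 745 CPM at 6m and 845 to 1084 CPM at 24m, without overlap.

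Of the tested auxiliary genes, 4 of 9 rose, beside 10.3% of all tested genes. Kcnab2, the beta subunit that travels with Kv1 channels to axons, was at 25.8, 30.7, 32.4 and 51.5 CPM at 6m and at 85.4, 109, 122 and 70.6 CPM at 24m. No library of one age reached those of the other. The log2FC was 1.43 (SE 0.21, edgeR adjusted p = 1.89e-05). Kcnab2 (4:152474250-152562651, minus strand) overlaps exons of Chd5 and Nphp4 on the opposite strand over 735 bases in all. Kcnab1, whose product gives Kv1 channels a fast inactivation, was at 7.39, 9.04, 8.71 and 7.53 CPM at 6m and at 7.62, 30.2, 26.9 and 28.4 CPM at 24m. Its 24m replicate 1 lay within the 6m range and the other 3 aged libraries lay far above it. The log2FC was 1.57 (SE 0.36, edgeR adjusted p = 0.0028), and 1.80 without 24m replicate 1. Its exons overlap those of A330015K06Rik, Gm54196 and Gm66041 on the opposite strand over 1124 bases. Kcnab3 was not called (log2FC 0.31, adjusted p = 0.436).

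The Kv channel-interacting proteins bind calcium and bring Kv4 subunits to the surface. All 4 had a log2FC above 0, as did 49.7% of all tested genes. Kcnip4 was at 7.39, 10.8, 8.71 and 7.53 CPM at 6m and at 21.3, 22.9, 19.2 and 27.6 CPM at 24m. The ages were far apart, with a log2FC of 1.44 (SE 0.30, edgeR adjusted p = 0.00151). Kcnip2 was at 34.5, 50.6, 66.0 and 49.0 CPM at 6m and at 76.2, 90.5, 89.6 and 78.2 CPM at 24m. These did not overlap either, and the log2FC was 0.74 (SE 0.17, edgeR adjusted p = 0.00324). Kcnip3 was at 26.1 to 37.7 CPM and 39.6 to 47.3 CPM, a separation with a log2FC of 0.46 (SE 0.19, adjusted p = 0.0890). Kcnip1 overlapped (log2FC 0.43, adjusted p = 0.150). Kcnip4 overlaps exons of 5730480H06Rik and Gm20700 on the opposite strand over 325 bases, and Kcnip2 overlaps none.

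Kcnmb4, which makes BK channels slow and resistant to a scorpion toxin, had the most counts of the auxiliary class. It was at 164, 172, 158 and 143 CPM at 6m and at 143, 121, 137 and 162 CPM at 24m, and the ages overlapped. The log2FC was -0.17 (SE 0.12, 95% interval -0.42 to 0.09, edgeR adjusted p = 0.358). Over 50.7% of the Kcnmb4 transcript an annotated RNA of the opposite strand, Kcnmb4os2, matches at 95% identity or more. The sources used here do not say whether reads were counted by strand, so it is not known whether the count includes reads of this RNA. Kcne5, a single-span subunit, had a log2FC of 0.15 (adjusted p = 0.830), and Kcne2, known from the choroid plexus, had 14 counts.

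**Figure D3:**
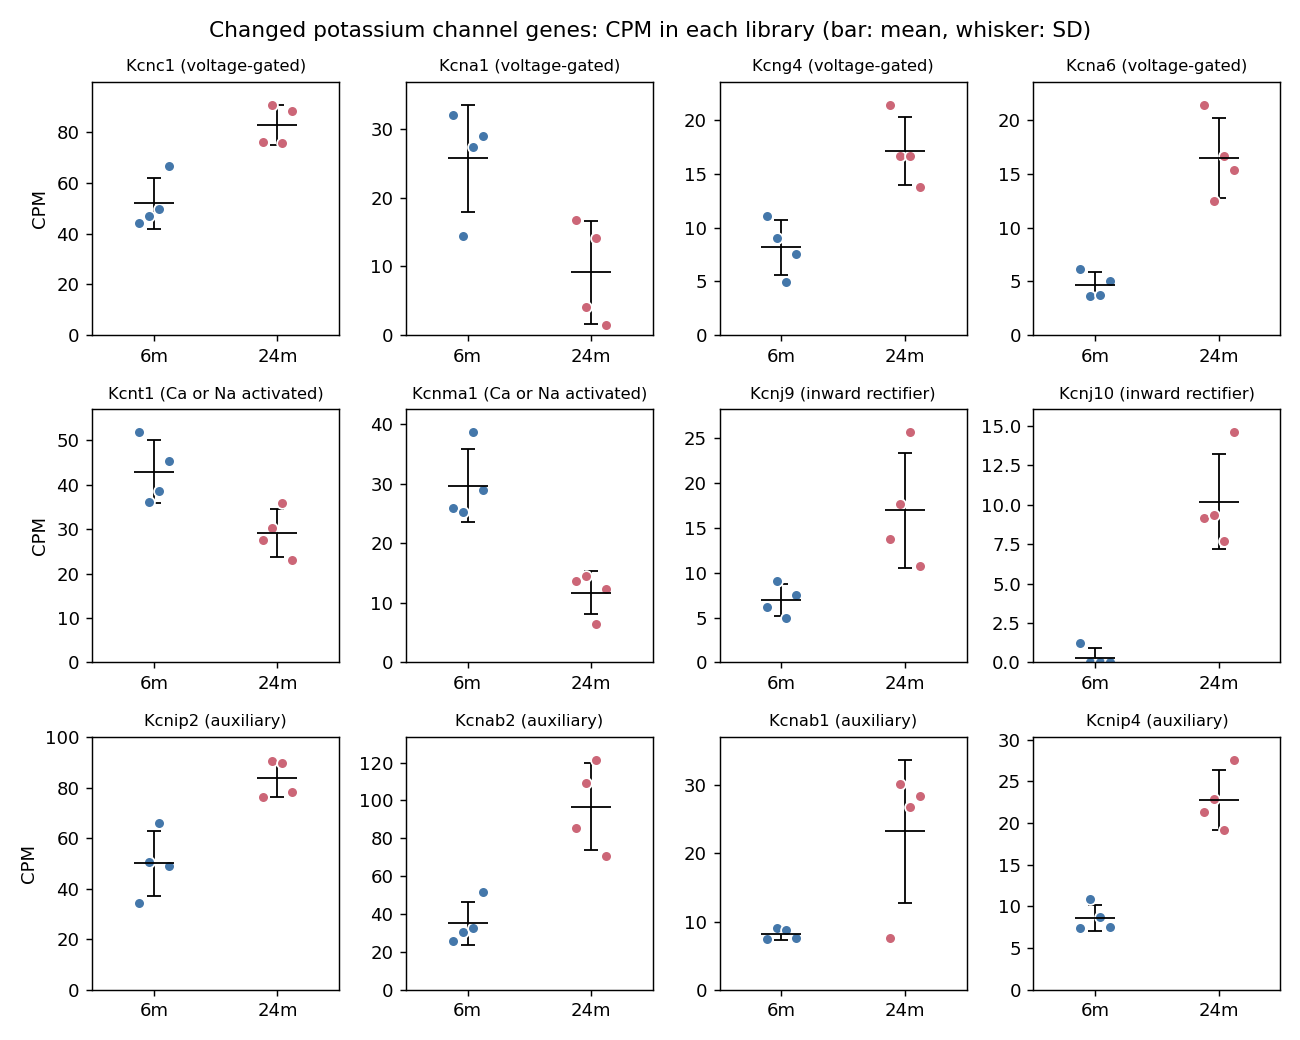
CPM (y axis, from 0) of the 12 changed potassium channel genes in the 4 libraries of each age. Points are libraries, bars are means and whiskers are SD. Kcna1 and Kcnab1 are the genes whose ages overlap, and Kcnj10 is near 0 in all 6m libraries.

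Of the 22 members too low for the test, Kcnt2 and Kcng1 had a pooled counting interval that left out 1, at ratios of 0.188 and 2.88 (1.03 to 9.93). Counting intervals cover counting error only and not the difference between mice. In the edgeR fit on all genes with at least 8 counts, 0 of the 22 passed, and 2 had an unadjusted p under 0.05. The members with the fewest counts were Kcnd3, Kcnn3, Kcnk10 and Kcnj14 with 11 each, and the genes nearest below the minimum were Kcna2 and Kcnk6 with 6 each. Of the 94 genes, 10 had no count in any library, among them Kcnj1, Kcnj2, Kcnj5, Kcnj15, Kcng3 and Kcnv2. Levels under 2.3 to 5.42 CPM rest on fewer than 3 counts in a library, and a difference among them was not detectable at this depth.

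**Figure D4:**
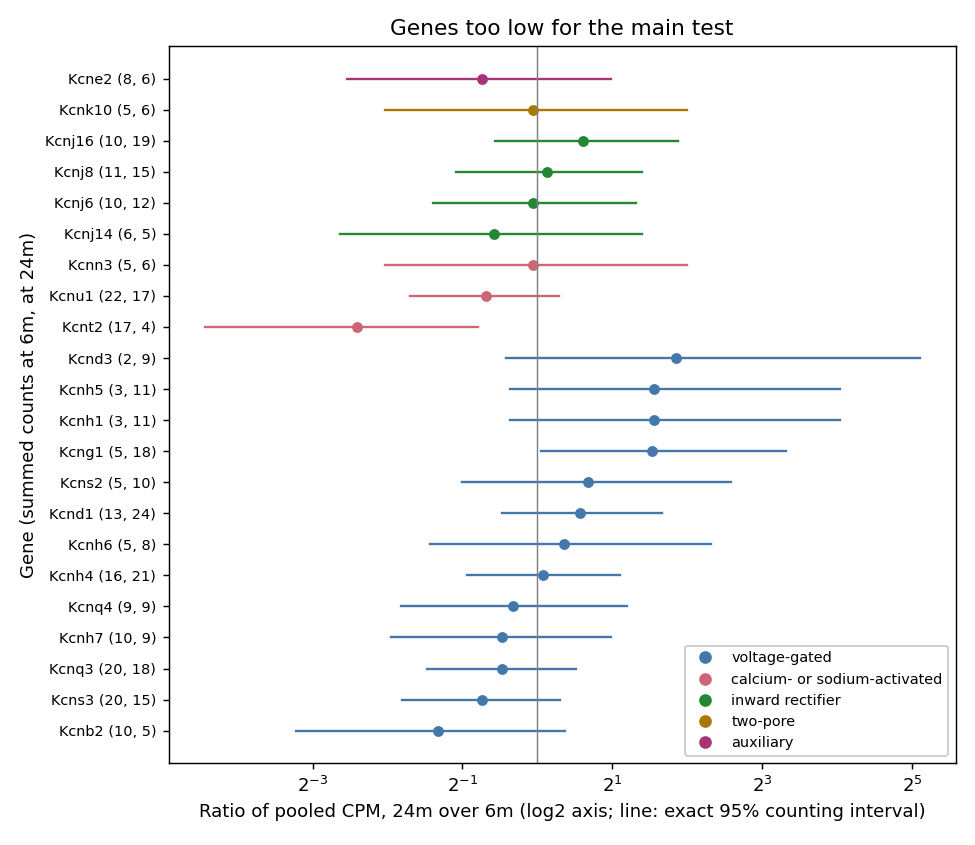
Ratio of pooled CPM (24m over 6m, log2 axis) with its exact 95% counting interval for the 22 members too low for the test, with the summed counts at 6m and 24m beside each name. Most intervals span 1, and Kcnt2 lies below it.

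Kcna2, Kcnd3, Kcnj2, Kcnj10 and Kcnk9 are named in the study's own text, which drew on short reads of the same mice, so their direction here is not independent evidence. Kcnj10 is described above. Kcnd3 had 2 counts at 6m and 9 at 24m, a pooled ratio of 3.60 (exact 95% counting interval 0.746 to 34.3) and an edgeR adjusted p of 0.308 in the wider fit. Kcna2 had 3 counts at each age, Kcnk9 had 1 at 6m and 3 at 24m, and Kcnj2 had none.

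Levels per kilobase of canonical transcript were highest for Kcnmb4 (109.6 CPM), Kcnk1 (73.1 CPM), Kcnj4 (35.0 CPM) and Kcnip2 (31.6 CPM). A direct RNA read stands for about 1 molecule whatever its length, so dividing by length lowers long transcripts. Across the 45 tested members, log2FC had a Spearman rho of -0.0366 with transcript length and 0.16 with the length of the 3′ untranslated region. Over 9321 tested protein-coding genes the same values were 0.13 and 0.288. These correlations are across genes, which share libraries and are not independent replicates.

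Proteins that bind potassium channels were listed apart. Of 26 such partner genes, 21 were tested, of which 2 rose (9.52%, close to the 10.3% of all tested genes) and 0 fell. Cntn2, which holds Kv1 channels beside the nodes of Ranvier, had a log2FC of 2.38 (SE 0.59, edgeR adjusted p = 0.005), and Vapb, which clusters Kv2 channels at contacts of the plasma membrane and the endoplasmic reticulum, had 0.61 (SE 0.15, edgeR adjusted p = 0.00616). In edgeR, DESeq2 and limma-voom 0 of the 4 tested HCN channel genes were called, and 1 had an unadjusted p under 0.05 in edgeR. Among 8 tested genes of the sodium channel list, which also holds partners of the pore, 2 rose (Fgf13 and Fgf14, 25%). In the same list 3 fell (Scn1a, Scn2a and Scn8a, 37.5%). Among 16 tested calcium channel genes 1 rose (Cacnb1, 6.25%) and 2 fell (Cacna1b and Cacnb4, 12.5%). Of all tested genes 10.3% rose and 4.17% fell, and the lists are too small for a comparison of shares. Cacnb1 and Cacna1b lost the call in 8 alternatives each and Scn8a and Cacnb4 in 3 each, while Cntn2 lost it in limma-voom alone. Single libraries also ended calls, for Scn1a that without 6m replicate 1 (log2FC -1.18), for Scn2a that without 6m replicate 3 (-0.88) and for Vapb that without 6m replicate 3 (0.55). The genes of the sodium channel list that fell encode pore-forming subunits, and those that rose encode cytosolic partners of the pore.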

How the data were processed

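Brain hemispheres of 8 male mice were sequenced, 4 per age. The authors deposited raw counts of reads per gene, made with minimap2 2.24 on GRCm39 and featureCounts; the setting for strand, overlapping genes and multi-mapping reads is not given in the sources used here. Counts were used as deposited, in a table that still holds genes with no count. Ensembl IDs were matched to GENCODE M39 (22281 of 22430 genes). The test used genes whose counts averaged more than 5, with edgeR 4.0.16 (quasi-likelihood test, TMM factors, age only, Benjamini-Hochberg over 9375 genes, R 4.3.3), and the standard error is the log2FC divided by the square root of F. The edgeR fit was tested on simulated data. Library totals of 573152 to 1255424 counts limit the precision of low genes. Each library is another mouse, and pairs of libraries within an age differed by more than sampling noise. The chi-square per degree of freedom was 1.18 to 1.84 within 6m and 1.3 to 4.07 within 24m. Within 24m, the pairs from 2.73 to 4.07 all included 24m replicate 1. Pairs across ages, which also hold the difference between the ages, were at 3.26 to 5.07. DESeq2 1.42.0, limma 3.58.1 (voom), other scalings, filters, a replicate block and leaving out each library were alternatives. Near-identical copies were sought with blastn 2.17.0 (95% identity over 50% of the transcript). Tested members are named, except some that are not reported here and stay in the fits and counts. Full statistics are given for those with an adjusted p of at most 0.05, those the study names and the most counted of each class where reported. Members and lists were chosen with earlier results of these data known. Of the 67 members, 35 share exon bases with a gene on the opposite strand and 1 (Kcnk4, with Catsperz) with one on the same strand. Sequences were read from the GENCODE M39 transcripts.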

Additional observations from a re-analysis of the deposited data

Results flagged for a closer look

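Among 84 groups of 4 libraries examined over tested potassium channel genes, 3 had a library apart from the other 3 by Dixon's test at 95%, and chance alone gives about 1 in 20. Kcnj11 was at 19.8 CPM in 24m replicate 2, against 7.62 to 7.68 CPM in the other 24m libraries. Kcnj10 was at 1.23 CPM in 6m replicate 1, which is 1 count, against 0 in the other 6m libraries. Kcnab1 was at 7.62 CPM in 24m replicate 1, against 26.9 to 30.2 CPM in the others.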

How the results depend on the processing

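The tests that 12 genes passed were repeated under 18 alternatives each where the gene was tested. Kcna6, Kcnab1, Kcnab2, Kcnc1, Kcnip2, Kcnip4, Kcnj10 and Kcnma1 kept call and direction in all that tested them (Kcnab1 in 17 and Kcnj10 in 16, since filterByExpr left out both and DESeq2 gave Kcnj10 no adjusted p on quantile-normalized counts). Of these, Kcna6 and Kcnj10 entered the main test through the aged libraries, so their calls remain descriptions. Kcna1 lost the call in DESeq2 on raw counts, Kcng4 in 8, Kcnj9 in 7 and Kcnt1 in 10 alternatives, those of Kcng4 and Kcnj9 with both DESeq2 fits and limma-voom among them, and the cause was not tested. Kcnd2 was called in 8, Kcnj12 in 3 and Kcnj3 in 3. The count of members higher at 24m lay between 6 and 12, and that of members lower between 1 and 3. Of all tested genes, 5.9% were higher in the fit with 6 and 11.8% in the fit with 12. DESeq2 on raw counts had 1 member lower, beside 2.19% of all tested genes. Across the fits with the fold minimum, 5.9% to 13% of all tested genes were higher and 2.19% to 5.24% lower. Library sizes alone shifted the median of all tested genes by 0.102 on the log2 scale and called 11 members higher and 2 lower, beside 13.0% and 2.38% of all tested genes. The median log2FC of the members lay between 0.16 (filterByExpr, fewer genes tested) and 0.48 (without 24m replicate 1, which called 12 higher). Over the partner, channel and marker lists, genes higher numbered 9 in DESeq2 on quantile-normalized counts and 29 by adjusted p alone. Genes lower numbered 7 in DESeq2 on raw counts, 7 in DESeq2 on quantile-normalized counts, and 7 to 13 when single libraries were left out.

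Signs reversed only in genes that were not called. With library sizes alone these were Kcnh2 (log2FC 0.0054), Kcnc4 (0.035) and Kcng2 (0.027), and Kcne5 (-0.090) with DESeq2 on quantile-normalized counts. When single libraries were left out, the log2FC of Kcnc4 ran from -0.21 to 0.14, of Kcnc2 from -0.48 to 0.054, of Kcng2 from -0.23 to 0.10, of Kcna4 from -0.065 to 0.67, of Kcnk12 from -0.25 to 0.032 and of Kcne5 from -0.064 to 0.33. The replicate numbers did not pair the mice (correlation of deviations -0.16 to 0.06). With a replicate block, 10 members rose and 2 fell, beside 10% and 3.93% of all tested genes, with a member median of 0.33. Low counts limit the 22 untested members, where 3 counts are 2.3 to 5.42 CPM.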
